A study of Mus musculus with 12 samples.

Results

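The SOCS and STAT feedback genes examined here are the 8 genes of the suppressor of cytokine signalling (SOCS) family, Cish and Socs1 to Socs7, together with Stat3 and Pim1. They were taken as a list of gene names that applies no threshold on measured values, though earlier results of these data were known when it was drawn up, and each was matched by its symbol to 1 Ensembl identifier, which gave 10 genes of the 49671 listed in each count file. All 10 were counted in every library, and the lowest normalized count of any of them was 84.3, for Cish in a library of serum-starved Lap2-depleted cells. The libraries came from NIH 3T3, a mouse fibroblast cell line, after transfection with a control siRNA or with an siRNA that targets total Lap2, the anchored and the nucleoplasmic isoforms alike. Lap2 is a protein of the nuclear lamina encoded by Tmpo. Cells with either siRNA were serum-starved in 0.3% FBS, or were starved and then stimulated with 15% FBS for 45 min. This gave 4 groups of 3 libraries, made from total RNA after depletion of ribosomal RNA, and the labels do not say whether replicates were separate cultures, so that p-values measure only the spread between these libraries. The question for the feedback genes is how they responded to serum, and how Lap2 depletion changed their level and their response.

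Cytokine receptors signal through Janus kinases (JAKs), which phosphorylate STAT transcription factors, and the STATs then enter the nucleus and switch on their targets. Several SOCS genes are among these targets. Their proteins bind the activated receptors or the JAKs through an SH2 domain and recruit an elongin and cullin ubiquitin ligase through the SOCS box, which makes them a negative feedback loop. Cish, Socs1, Socs2 and Socs3 are the members best known for this loop, whereas Socs4 to Socs7 are more often linked to receptor tyrosine kinases. Pim1, a serine/threonine kinase that promotes survival and growth, is a classical STAT target, and Stat3 is the STAT that acts downstream of gp130 and can raise its own transcription.

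Values are normalized counts, that is, counts scaled by TMM to a library of average size. Total counts ranged from 18026298 to 26265253 per library, and 18668 genes were tested together. A gene was called at an adjusted p under 0.05 (edgeR's quasi-likelihood test, adjusted by Benjamini-Hochberg over all tested genes), and log2FC is given with its standard error (SE). Tmpo averaged 2822 ± 57.0 normalized counts (SD, n = 3) with control siRNA and 1083 ± 97.3 with Lap2 siRNA in 0.3% FBS, a log2FC of -1.38, and 3175 ± 136 against 706 ± 87.0 in 15% FBS, a log2FC of -2.17. All 8 fibroblast markers were detected in every group, and their summed level was 39510 to 45167 CPM in the control libraries and 24320 to 32728 CPM in the Lap2-depleted ones. The part of this difference in the results was not tested. The summed immune, epithelial and endothelial markers did not pass 2.56 CPM in any library, and Cd3e and Itgam were at 0. In such bulk RNA, fewer cells that express a gene and less RNA per cell cannot be told apart.

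How the libraries are scaled affects all these values. When total counts alone were used, the median log2FC over all genes shifted by -0.21 (control siRNA) and -0.23 (Lap2 siRNA) for serum and by 0.11 for Lap2 depletion in starved cells. With upper-quartile normalization the shift for serum was -0.11 in Lap2-depleted cells. With total counts, 8.74% of all genes were higher and 31.3% lower after serum in control cells, and 8.88% and 31.9% in Lap2-depleted cells, whereas upper-quartile normalization gave 11.7% and 20.8%, and 12.8% and 21.1%. For Lap2 siRNA, total counts gave 25.1% higher and 14.1% lower in 0.3% FBS and 18.6% and 8.99% in 15% FBS. The corresponding shares with TMM stand beside each count of the feedback genes.

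**Figure D1:**
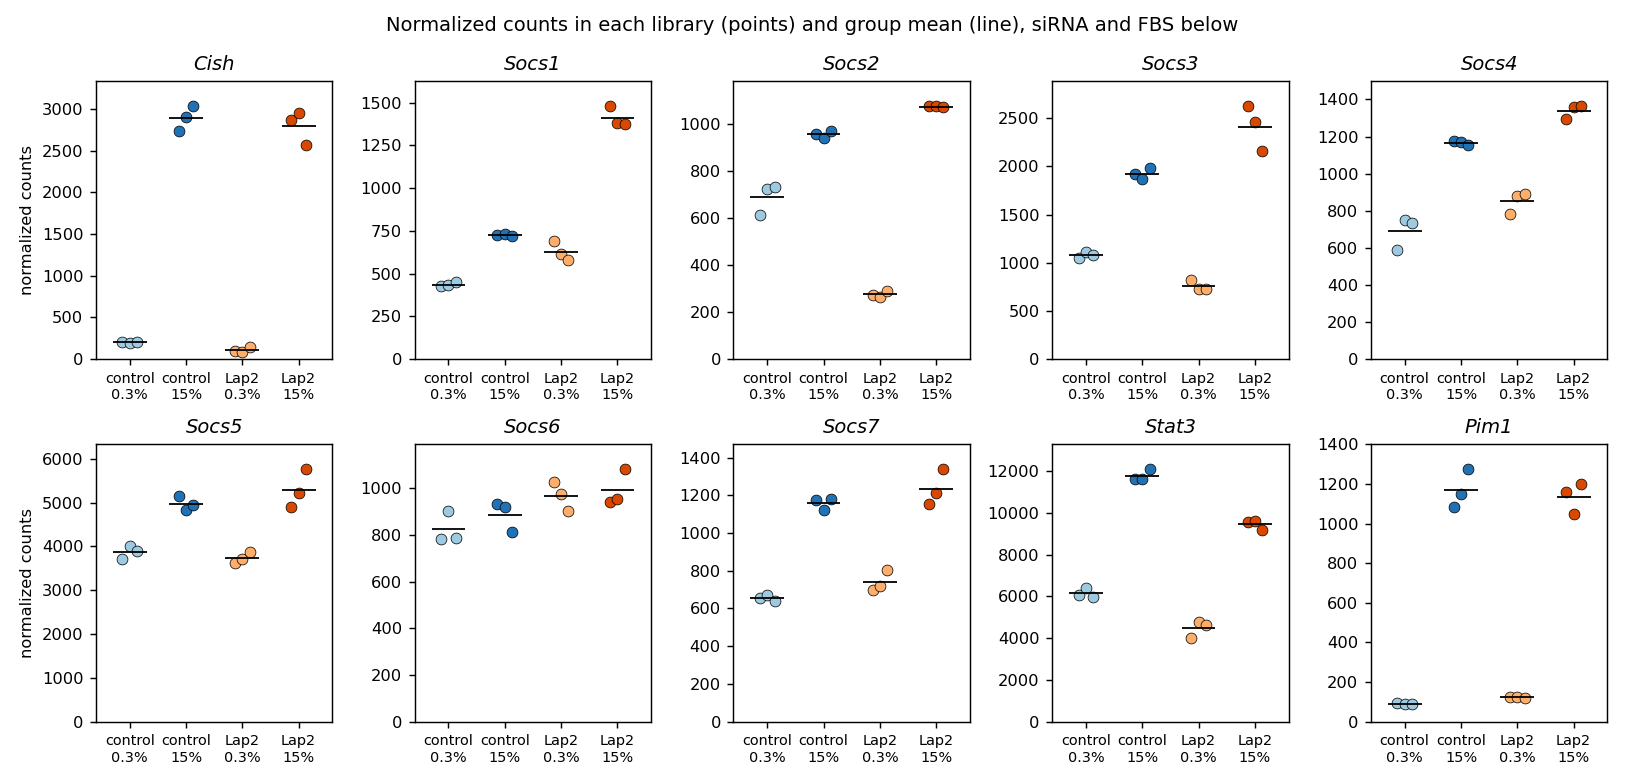
Normalized counts (y axis, linear and starting at 0) of the 10 genes in the 4 groups (x axis: siRNA and FBS), with a point for each library and a line at the mean of 3. Cish rises from 84.3 to 205 in starved cells to between 2569 and 3031 after serum, Socs2 is lowest in starved Lap2-depleted cells at 265 to 288, and Socs6 stays between 782 and 1082 in all 12 libraries.

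Stat3 lies on chromosome 11 (mm10, 100885098 to 100939540, minus strand). In serum-starved control siRNA treated cells the libraries held 6072, 6386 and 5981 normalized counts, and after serum 11643, 11606 and 12101. With Lap2 siRNA they held 3988, 4788 and 4646 in 0.3% FBS and 9573, 9622 and 9171 in 15% FBS. Every Lap2-depleted library was thus below every control library of the same serum condition, and every stimulated library above every starved one. Serum raised Stat3 by a log2FC of 0.94 (SE 0.0641) with control siRNA and 1.08 (SE 0.0645) with Lap2 siRNA, and Lap2 siRNA lowered it by a log2FC of -0.46 (adjusted p = 6.0e-07) in starved and -0.32 (adjusted p = 2.8e-04) in stimulated cells. The difference between the 2 serum responses, the interaction, was 0.14 (95% confidence interval -0.04 to 0.33, adjusted p = 0.36). Stat3 shares 72 of its 9527 exonic bases with Stat5a on the other strand, and whether counting used the strand is not given in the sources used here.

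Cish and Socs2, both known as targets of STAT5, were lower after Lap2 depletion in starved cells, and for neither was a difference called in stimulated cells. Cish (chromosome 9, 107296026 to 107302784, plus strand), whose protein occupies receptor sites to which STAT5 would dock, had 205, 192 and 198 normalized counts in starved control cells and 93.7, 84.3 and 147 in starved Lap2-depleted cells. After serum it had 2736, 2899 and 3031 with control and 2866, 2953 and 2569 with Lap2 siRNA. The groups were apart in 0.3% FBS and overlapped in 15% FBS, and the third starved Lap2-depleted library stood above the other two. In starved cells Lap2 siRNA lowered Cish by a log2FC of -0.88 (SE 0.136, adjusted p = 2.3e-06), or -1.14 without that library. In stimulated cells the log2FC was -0.05 (95% confidence interval -0.22 to 0.12, adjusted p = 0.77) and changed sign, to 0.04, with total counts. Serum raised Cish 14.5-fold in control and 25.8-fold in Lap2-depleted cells, and these responses differed by a log2FC of 0.83 (SE 0.159, adjusted p = 2.9e-04).

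Socs2 (chromosome 10, 95385362 to 95417180, minus strand), a brake on growth hormone signalling, gave the widest separation of the starved groups. It had 613, 722 and 732 normalized counts in starved control cells and 270, 265 and 288 in starved Lap2-depleted cells, a log2FC of -1.33 (SE 0.0865, adjusted p = 3.4e-14). After serum it had 956, 941 and 968 with control and 1073, 1073 and 1069 with Lap2 siRNA, a log2FC of 0.17 (95% confidence interval 0.01 to 0.32) that did not pass the threshold (adjusted p = 0.12) but did with total counts (0.25, adjusted p = 0.0122). The stimulated libraries of Lap2-depleted cells all lay above those of control cells, by less than the gap between the starved groups. Socs2 rose 1.39-fold with serum in control cells and 3.90-fold in Lap2-depleted cells. Its interaction of 1.49 (SE 0.115, adjusted p = 3.0e-11) was the largest of the 10 genes.

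Socs3 and Socs1 encode the SOCS proteins that inhibit JAKs directly through a kinase inhibitory region. Socs3 (chromosome 11, 117966079 to 117970047, minus strand), which binds gp130 and restrains signals of the interleukin 6 family, had 1052, 1108 and 1083 normalized counts in starved control cells and 818, 729 and 730 in starved Lap2-depleted cells. In 15% FBS it had 1921, 1872 and 1985 with control and 2624, 2460 and 2159 with Lap2 siRNA. Lap2-depleted libraries were therefore all lower before serum and all higher after it. The log2FC of Lap2 siRNA was -0.51 (SE 0.0762, adjusted p = 1.7e-06) in 0.3% FBS and 0.33 (SE 0.0711, adjusted p = 7.0e-04) in 15% FBS. Serum raised Socs3 1.78-fold and 3.18-fold, respectively, with an interaction of 0.83 (SE 0.104, adjusted p = 5.0e-07).

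Socs1 (chromosome 16, 10783808 to 10785536, minus strand), a strong inhibitor of interferon signalling, went the other way in starved cells. The libraries held 425, 432 and 449 normalized counts with control and 690, 616 and 577 with Lap2 siRNA in 0.3% FBS, and 728, 730 and 719 against 1479, 1378 and 1376 in 15% FBS. All Lap2-depleted libraries were above the control libraries of the same serum condition. Lap2 siRNA raised Socs1 by a log2FC of 0.53 (SE 0.0817, adjusted p = 2.7e-06) in starved and 0.96 (SE 0.0758, adjusted p = 1.2e-11) in stimulated cells. Serum raised it 1.67-fold in control and 2.25-fold in Lap2-depleted cells, and these responses differed by 0.43 (SE 0.111, adjusted p = 0.0073).

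Promoter windows were examined for only 6 of the 10 genes (Cish, Socs1, Socs3, Socs4, Stat3 and Pim1), and the other genes were not searched. These windows came from the RefSeq table used here (GRCm38.p6, 7 windows of 250 bases before to 50 bases after an annotated start). They were searched for TTCNNNGAA, the core sequence to which STAT dimers bind and whose pattern reads alike on both strands, and for the CArG box, the binding sequence of SRF. TTCNNNGAA was found in the Cish and Socs3 windows and in none of the other 5 windows, and was present in 8.30% of all 32851 promoter windows of this length. The CArG box was in none of the 7 windows and in 1.63% of all windows. The stretches of 30 bases around the matches in the Cish and Socs3 windows are shown, and any link to expression was not tested. They run 5′ to 3′ on the strand of the gene with TTCNNNGAA in capitals, at chr9:107296654-107296683 (plus strand) and chr11:117969501-117969530 (minus strand) of mm10.
Cish: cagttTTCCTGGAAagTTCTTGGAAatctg
Socs3: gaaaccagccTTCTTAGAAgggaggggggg
The Cish stretch holds 2 matches, the first of which begins at the RefSeq start itself, and lies in the 5′ untranslated region of a longer GENCODE transcript. The Socs3 match begins 154 bases before the RefSeq start, in an intron of a longer transcript. A match describes the sequence and shows no binding.

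Socs4, Socs5, Socs6 and Socs7 had the narrowest spans of group mean log2 CPM over the 4 groups, from 0.27 for Socs6 to 0.96 for Socs4, against 1.40 or more for the other members. Socs7, which binds insulin receptor substrates, ranged from 637 to 669 normalized counts in starved and from 1124 to 1181 in stimulated control cells, and from 698 to 807 and from 1154 to 1339 in Lap2-depleted cells. Serum raised it by a log2FC of 0.83 with control and 0.74 with Lap2 siRNA. In 0.3% FBS the log2FC of Lap2 siRNA was 0.18 (adjusted p = 0.077), which passed the threshold with total counts (adjusted p = 0.00368) or without the first starved Lap2-depleted library (adjusted p = 0.0154).

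Socs4, which like Socs5 is linked to turnover of the EGF receptor, had 589, 749 and 732 normalized counts in starved control and 780, 878 and 892 in starved Lap2-depleted cells, and 1174, 1169 and 1152 against 1293, 1359 and 1363 after serum. Lap2 siRNA raised it by a log2FC of 0.30 (SE 0.0827, adjusted p = 0.0040) in 0.3% FBS, whereas in 15% FBS the log2FC of 0.20 (95% confidence interval 0.04 to 0.36) had an adjusted p of 0.065. This last value passed the threshold when only the groups compared were fitted (adjusted p = 0.0135), with total counts (0.00596), and without the first library of starved control (0.0451) or starved Lap2-depleted cells (0.0348). Serum raised Socs4 by 0.76 and 0.66 on the log2 scale.

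Socs5 ranged from 3719 to 3999 normalized counts in starved and from 4836 to 5145 in stimulated control cells, and from 3628 to 3865 and from 4909 to 5768 in Lap2-depleted cells. It rose with serum by a log2FC of 0.36 and 0.50, and the first of these missed the threshold with total counts (0.15, adjusted p = 0.0558). The groups with the 2 siRNAs overlapped in both serum conditions, with a log2FC of -0.05 (95% confidence interval -0.18 to 0.08) in starved cells, which was 0.06 with total counts, and of 0.09 (-0.04 to 0.22) in stimulated cells. The value in stimulated cells passed the threshold with total counts (0.18, adjusted p = 0.038).

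Socs6, which has been linked to KIT and insulin receptor signalling, was the member for which no serum response was called. Its libraries ranged from 782 to 902 normalized counts in starved and from 813 to 931 in stimulated control cells, with a log2FC of 0.11 (95% confidence interval -0.06 to 0.27), and from 902 to 1025 and from 943 to 1082 in Lap2-depleted cells, with a log2FC of 0.04 (-0.13 to 0.20). Both changed sign with total counts, to -0.10 and -0.19. Lap2 siRNA raised Socs6 by a log2FC of 0.23 (adjusted p = 0.025) in 0.3% FBS, a call that was lost when only the groups compared were fitted (adjusted p = 0.0613) and without the first (0.0818) or the third (0.0777) starved control library. In 15% FBS the log2FC of 0.16 (adjusted p = 0.17) was not called, but it was with total counts (0.25, adjusted p = 0.023).

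Pim1 (chromosome 17, 29490812 to 29496111, plus strand) had 94.2, 91.0 and 87.4 normalized counts in starved control cells and 126, 125 and 121 in starved Lap2-depleted cells, groups that did not overlap. After serum it had 1084, 1149 and 1276 against 1157, 1049 and 1201, which overlapped. Lap2 siRNA raised it by a log2FC of 0.44 (SE 0.126, adjusted p = 0.0048) in 0.3% FBS. In 15% FBS the log2FC was -0.04 (95% confidence interval -0.20 to 0.12, adjusted p = 0.79), and 0.05 with total counts. Serum raised Pim1 12.8-fold in control and 9.17-fold in Lap2-depleted cells. It was the gene of the 10 whose interaction was negative and called, at -0.49 (SE 0.148, adjusted p = 0.024), but this call was lost without the third stimulated control library (-0.41, adjusted p = 0.0696) or the second stimulated Lap2-depleted library (-0.43, adjusted p = 0.0696).

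**Figure D2:**
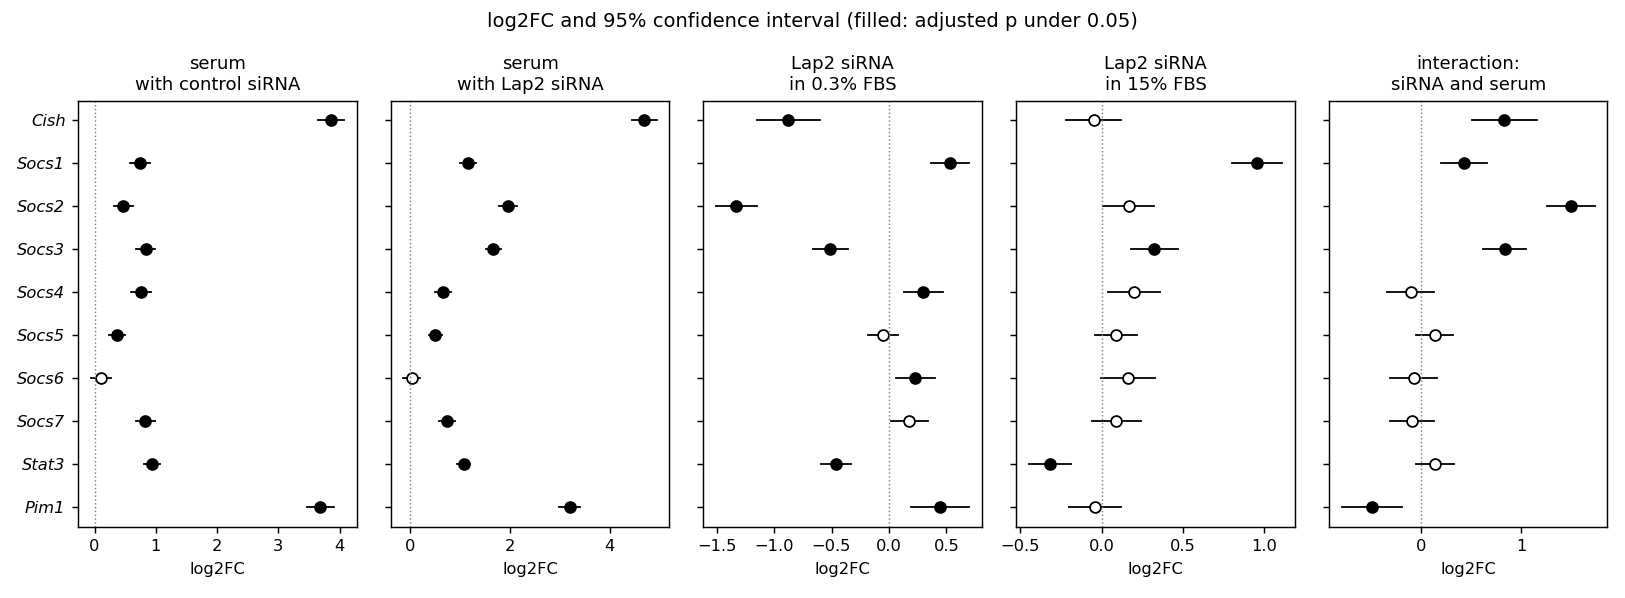
Log2FC (x axis, with its own range in each panel) of the 10 genes (y axis) in the 5 comparisons, with 95% confidence intervals from edgeR and filled points where the adjusted p was under 0.05. In 0.3% FBS the points spread to both sides of 0, from -1.33 for Socs2 to 0.53 for Socs1, while in 15% FBS 7 of the 10 points are open. The serum responses of Socs6 and the 15% FBS values of Cish and Pim1, all open, changed sign with total counts, as did the open 0.3% FBS value of Socs5.

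Counted together, serum raised 9 of the 10 genes in control siRNA treated cells, all but Socs6, where 29.5% of all tested genes were called (15.6% higher and 13.9% lower). In Lap2-depleted cells it raised the same 9 genes, where 33.2% of all genes were called (18.3% higher and 14.9% lower). The median log2FC of the 10 genes was 0.79 and 1.12, and that of all tested genes -0.01 and 0.00. Lap2 siRNA changed 8 of the 10 in starved cells, 4 up (Socs1, Pim1, Socs4 and Socs6) and 4 down (Socs2, Cish, Socs3 and Stat3), where 36.5% of all genes were called (17.8% higher and 18.6% lower). The median of 0.06 beside 0.01 for all genes does not describe a list that moved to both sides. In stimulated cells 3 were called, Socs1 and Socs3 up and Stat3 down, where 23.4% of all genes were called (11.4% higher and 12.1% lower), and the medians were 0.13 and 0.02. With total counts this number was 7, with Socs2, Socs4, Socs5 and Socs6 also higher. The serum comparisons and the siRNA comparisons share libraries and are not independent.

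The interaction was called for 5 of the 10 genes, positive for Socs2, Socs3, Cish and Socs1 and negative for Pim1, where 13.6% of all genes were called (7.09% positive and 6.51% negative). The same 5 genes were called with DESeq2, with total counts and with upper-quartile normalization. The 5 others had interactions between -0.10 and 0.14 with adjusted p-values from 0.36 to 0.77. For the 4 positive genes the fold of serum stimulation in Lap2-depleted cells was 2.82 times that in control cells for Socs2, 1.78 times for Socs3, 1.78 times for Cish and 1.35 times for Socs1. In Cish and Socs2 this went with a lower starved level, in Socs3 with a lower starved and a higher stimulated level, and in Socs1 with both levels higher.

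**Figure D3:**
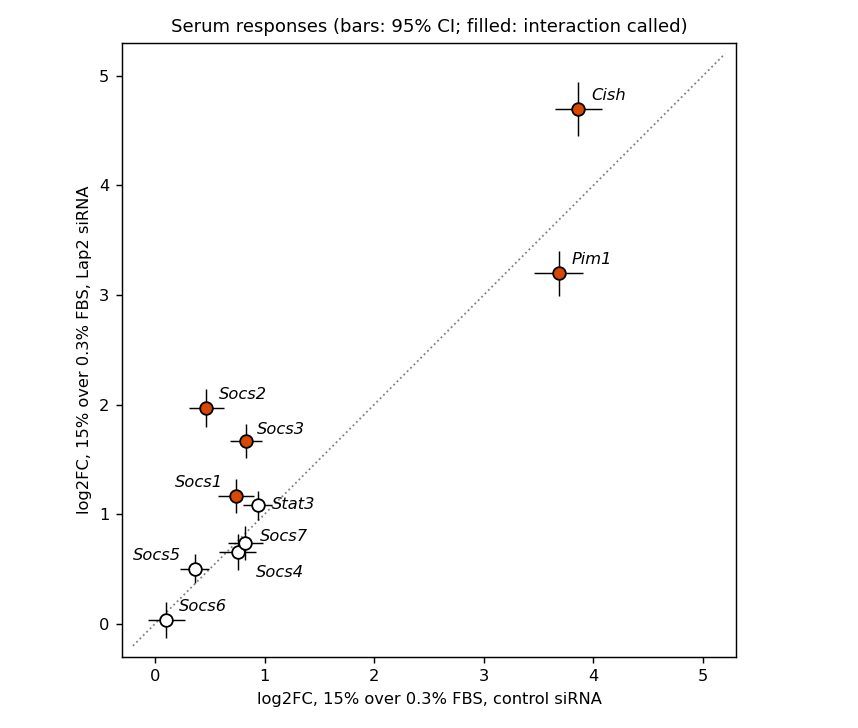
Log2FC of serum stimulation (15% over 0.3% FBS) with control siRNA (x axis) and with Lap2 siRNA (y axis) for the 10 genes, with 95% confidence intervals, a dotted line of equal responses and filled points where the interaction was called. Socs2 (0.47 and 1.96), Socs3 (0.83 and 1.67), Cish (3.86 and 4.69) and Socs1 (0.74 and 1.17) lie above the line and Pim1 (3.68 and 3.20) below it; the open points lie near it, and Socs6 changed sign on both axes with total counts.

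Levels of different genes were compared per kilobase (kb) of exon sequence in GENCODE M21, with all exons of a gene joined. The annotation behind the counts can differ from this. Socs1 begins at 10783808 in the count files but at 10782240 in GENCODE M21. Its divisor of 2908 bases is thus longer than the counted gene, and its level per kb is understated. The ends of Socs4, Socs5 and Pim1 differ by less. The order of genes depends on these lengths, also for Cish (6419 bases). In starved control cells Stat3 had 645 ± 22.3 normalized counts per kb (SD, n = 3) and Socs5 603 ± 22.0, followed by Socs3 with 374 ± 9.72 and Socs1 with 150 ± 4.18. Socs4 and Socs7 came next and overlapped, as did Socs6 and Socs2, and Cish (30.9 ± 0.994) and Pim1 (27.0 ± 1.02) were lowest. In stimulated control cells Cish and Pim1 stood directly behind Socs3, with 450 ± 23.1 and 348 ± 29.0 per kb. In starved Lap2-depleted cells Socs5 (583 ± 18.6) was above Stat3 (470 ± 44.8), and Socs2 (28.8 ± 1.28) fell below Pim1 (36.8 ± 0.836). In stimulated Lap2-depleted cells Socs3 (835 ± 81.6) and Socs5 (825 ± 67.9) overlapped behind Stat3 (992 ± 26.0), and Socs1 (485 ± 20.1) stood above Cish (436 ± 31.4), the reverse of their order in stimulated control cells.

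Summed over the 8 SOCS genes, the level was 1431 to 1541 normalized counts per kb in starved control and 1398 to 1428 in starved Lap2-depleted libraries, and 2608 to 2680 against 3109 to 3170 after serum. The sums and the shares below rest on the same exon lengths. The share of Socs1 is therefore understated, and the other shares shift with it. Socs5 made up 40.4% ± 0.131 of this sum in starved control cells and 41.1% ± 1.36 in starved Lap2-depleted cells, and 29.3% ± 0.779 and 26.3% ± 2.43 after serum. The share of Cish was 2.08% ± 0.146 and 1.19% ± 0.365 before and 17.0% ± 0.842 and 13.8% ± 0.873 after serum. Socs1 made up 10.0% ± 0.335 and 9.43% ± 0.197 in starved and stimulated control cells and 15.2% ± 1.35 and 15.4% ± 0.544 in Lap2-depleted cells. Socs3 made up 25.1% ± 0.329 of the sum in starved control and 18.5% ± 1.13 in starved Lap2-depleted cells. The summed starved levels of the 2 siRNAs thus lay close together while their composition differed.

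**Figure D4:**
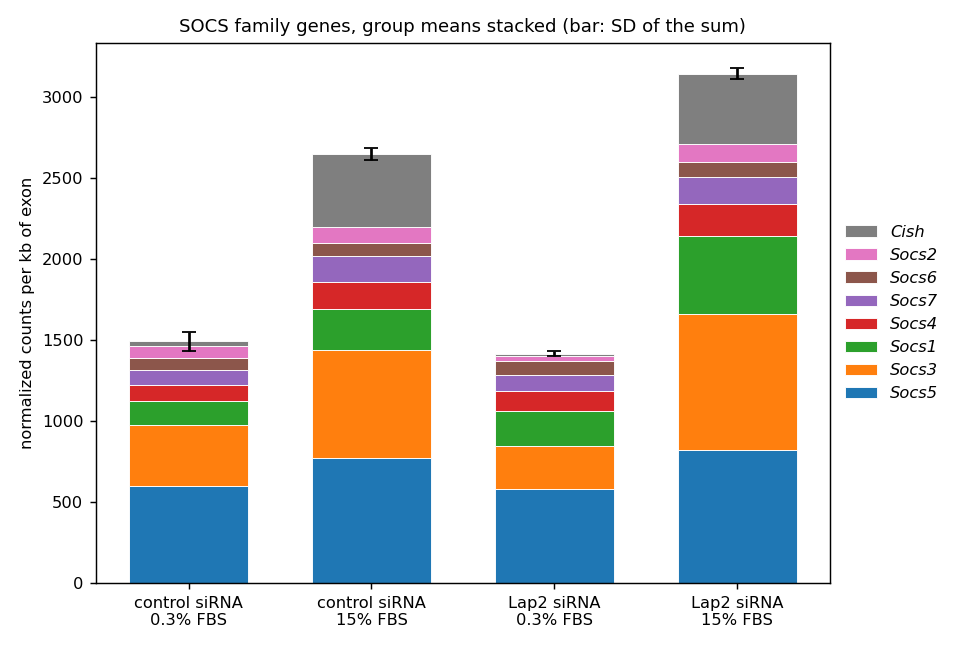
Normalized counts per kb of exon (y axis, starting at 0) of the 8 SOCS genes, stacked as group means for the 4 groups (x axis), with the SD of the sum over 3 libraries. The sums are near 1493 and 1418 in starved cells and 2649 and 3146 in stimulated cells, and the Cish segment is nearly absent from both starved bars. Exon lengths are those of GENCODE M21, and the Socs1 segment is understated because the counted gene is shorter.

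The rest of the pathway was read from 74 other genes in 7 roles, of which 68 were tested. Osm, Ifnb1, Csf2, Prlr, Csf2ra and Stat4 had 0 to 4 counts in all libraries together and were not. In starved cells Lap2 siRNA changed 43 of the 68, 17 up and 26 down, where 36.5% of all tested genes were called, and in stimulated cells 29, 15 up and 14 down, where 23.4% were called. The medians were -0.03 and -0.01, and 0.01 and 0.02 for all genes. With total counts these splits were 24 up and 18 down, and 24 up and 9 down. Serum changed 37 genes in control cells (27 up and 10 down) and 40 in Lap2-depleted cells (32 up and 8 down), where 29.5% and 33.2% of all genes were called. With total counts these were 19 up and 25 down, and 25 up and 20 down, and with upper-quartile normalization 23 up and 15 down, and 28 up and 15 down. The interaction was called for 17 genes, 12 positive and 5 negative, where 13.6% of all genes were called. Genes outside the rule for named genes are named below after their values were seen.

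Among ligands, serum raised 6 of the 8 tested in control and in Lap2-depleted cells, where 15.6% and 18.3% of all genes were higher. Of these, Csf3 and Il6 had group means of at most 19.7 and 49.6 normalized counts. With total counts or upper-quartile normalization 1 more ligand was called in control cells, as lower. Lif, which signals through gp130 and Lifr, rose by a log2FC of 7.16 and 6.24, Il11, another gp130 ligand, by 3.13 and 3.17, and Csf1, the macrophage growth factor, by 2.17 and 2.22. The starved means of Lif were low, at 16.8 normalized counts with control and 16.3 with Lap2 siRNA. Lif was the ligand whose interaction was called, at -0.92 (adjusted p = 0.031), and Lap2 siRNA lowered it by a log2FC of -0.94 in 15% FBS. For Il11 the third stimulated Lap2-depleted library (1849 normalized counts) stood above the others (1186 and 1179).

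Of 19 receptor genes tested, Lap2 siRNA lowered 10 and raised 5 in 0.3% FBS, where 18.6% of all genes were lower and 17.8% higher, and with total counts it lowered 7 and raised 7, where 14.1% and 25.1% were. Il6st, which encodes gp130, fell by a log2FC of -0.73 (adjusted p = 1.9e-09), and Osmr, the oncostatin M receptor, of -0.64 (adjusted p = 5.9e-08), whereas Il6ra rose by 1.22 (adjusted p = 1.2e-13) and Lifr by 0.28 (adjusted p = 0.022). Csf2rb, Cntfr, Epor and Lepr, also called, had means of only 2.28, 9.84, 4.54 and 11.2 normalized counts. In 15% FBS Il6st was still lower (-0.34) and Il6ra (1.03) and Lifr (0.32) higher, and Osmr had a log2FC of 0.13 (adjusted p = 0.24). The interaction was called for 5 of the 19 receptors, where 13.6% of all genes were called (7.09% positive). All 5 were positive, for Osmr (0.77), Ghr (0.64), Il11ra1 (0.64), Ifnar2 (0.49) and Il6st (0.39).

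The 4 JAK genes lay at or below the control level in Lap2-depleted cells. In 0.3% FBS Jak2 (-0.48), Tyk2 (-0.37) and Jak1 (-0.24) were lower, of which total counts left 2 called, and Jak3 had a log2FC of -0.08 (adjusted p = 0.56). In 15% FBS all 4 were lower, from -0.77 for Tyk2 to -0.19 for Jak1, where 12.1% of all genes were lower. Total counts left 2 of the 4 called. Among the other STAT genes, Stat2 (-0.89), Stat5a (-0.60) and Stat5b (-0.42) were lower and Stat6 (0.31) higher in starved cells. The same 3 were lower in stimulated cells, at -0.53, -0.61 and -0.26, with Stat6 (0.21) higher. With total counts 2 of the 5 STAT genes tested here were called lower in stimulated cells. With serum, Stat2 fell by a log2FC of -0.82 and -0.46 with control and Lap2 siRNA and Stat5a of -0.48 and -0.49, opposite in direction to Stat3, and Stat5b rose by 0.29 and 0.44, of which the first was not called with total counts.

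**Figure D5:**
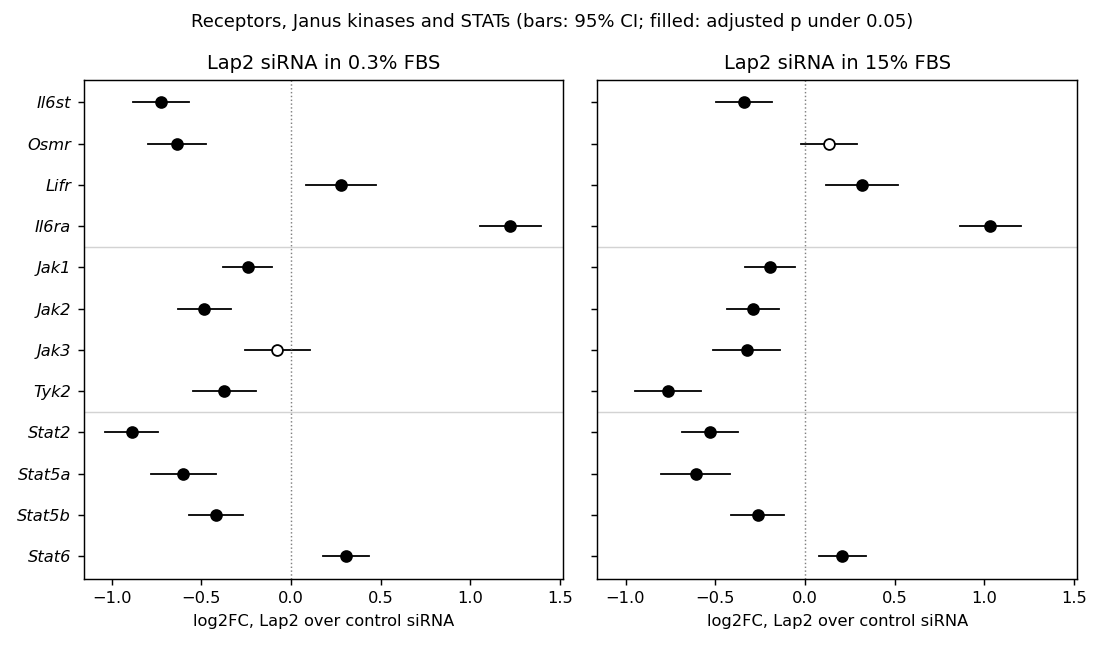
Log2FC of Lap2 over control siRNA (x axis) in 0.3% FBS (left) and 15% FBS (right) for 4 receptor genes of the gp130 group, the 4 JAK genes and 4 STAT genes (y axis), with 95% confidence intervals and filled points where the adjusted p was under 0.05. Il6ra (1.22 and 1.03) is farthest to the right in both panels, Stat2 (-0.89) farthest to the left in 0.3% FBS and Tyk2 (-0.77) in 15% FBS.

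The 10 other inhibitors and phosphatases include the PIAS proteins and the tyrosine phosphatases that act on JAKs. Lap2 siRNA raised 2 and lowered 3 of them in starved cells (2 and 1 with total counts), where 36.5% of all genes were called. In stimulated cells it raised 2 (3 with total counts), where 23.4% were called. For 0 of the 10 was the interaction called, where 13.6% of all genes were. Of the 6 subunits of the ubiquitin ligase that works with the SOCS box, Cul2 was higher in starved cells and 0 were called in stimulated cells or for the interaction. With total counts 5 and 3 of the 6 were called, all higher, where 25.1% and 18.6% of all genes were higher.

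The 16 known STAT targets other than the SOCS genes and Pim1 moved to both sides. Serum raised 10 and lowered 3 of them in control cells (9 and 5 with total counts), among them Junb (4.07), Myc (3.74), Mcl1 (1.99) and Vegfa (1.87) up and Irf1 (-1.76) down. In Lap2-depleted cells it raised 11 and lowered 4, with Junb at 4.94, Myc at 2.93, Vegfa at 2.69, Pim3 at 2.60 and Cebpb at 2.24. The stimulated Lap2-depleted libraries of Vegfa were uneven, at 4275, 4430 and 6253 normalized counts. The first of them lay within the stimulated control range of 3501 to 4283. Lap2 siRNA raised 6 and lowered 6 in 0.3% FBS, and raised 7 and lowered 2 in 15% FBS (8 and 1 with total counts). Bcl3, an IκB family cofactor, fell by a log2FC of -1.21 in starved cells and was higher, by 0.56, in stimulated cells, with an interaction of 1.77 (adjusted p = 6.7e-12), the signs also seen for Socs3. Ccnd1, which encodes cyclin D1, had an interaction of -1.02 (adjusted p = 1.4e-05). Interactions were called for 9 of the 16, 6 positive and 3 negative, where 13.6% of all tested genes were called. For serum, 29.5% of all genes were called with control and 33.2% with Lap2 siRNA. For Lap2 siRNA, 36.5% were called in 0.3% FBS and 23.4% in 15% FBS.

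The genes whose log2 CPM followed the feedback genes most closely over the 12 libraries were sought for the 4 with the widest span of group means, among 10448 genes. For Cish, with a span of 4.75, these were Nfkbiz (r = 0.997), Phf13 (0.995) and Cx3cl1 (0.994). Pim1, with a span of 3.66, was followed by Plk3 (r = 0.999) and Arc (0.998). Socs2 had a span of 1.96 and was followed by Marcksl1 (r = 0.983), Insyn1 (0.981) and Lmcd1 (0.980), and Socs1, with a span of 1.69, by Taf7 (0.992), Poldip3 (0.988) and Arrdc3 (0.985). The points of each correlation are 4 groups of 3 libraries, and share the serum and siRNA conditions and the scaling, so that r is a description.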

How the data were processed

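RNA-seq of NIH 3T3 cells gave 12 libraries in 4 groups of 3, with the groups and replicate numbers taken from the labels. The authors aligned the reads with TopHat2 to mm10, counted reads on each gene by HTSeq. The deposited values are these raw counts. The submitters' processing notes also name DESeq2. Versions, annotation and strand setting are not given in the sources used here. Each file lists 49671 genes, 99.3% with a symbol in the reference tables, and 0 rows name no gene.

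From the counts, edgeR 4.0.16 (R 4.3.3) was run with TMM scaling and its quasi-likelihood test (glmQLFit, glmQLFTest). Of all genes, 18668 had counts over 1 in 3 or more libraries and were tested in a single fit of the 4 group means, with Benjamini-Hochberg adjustment and a threshold of 0.05. The study applied a count cutoff above 1 to list transcribed genes. Log2 CPM had a prior count of 2. Exon lengths and overlaps came from GENCODE M21. File starts count from 0 and are given from 1. The procedure was tested on simulated counts for serum stimulation with control siRNA, where 93% of 200 genes changed by a log2FC of 1, and 11 of the unchanged among 18668, were called. Figures were drawn with matplotlib 3.10.9.

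The 10 genes, the pathway list and the alternatives were chosen with earlier results of these data known. Named pathway genes had an adjusted p under 0.05, an absolute log2FC of at least 1 and 50 or more normalized counts on average (the 8 with the largest change per comparison), besides the JAK, STAT, Il6st, Lifr and Osmr genes. For the 4 members with the widest span, the 3 genes of highest Pearson r were named, among genes averaging 100 or more normalized counts. Some genes that these rules or lists name are not reported here. Alternatives were DESeq2 1.42.0, total counts, upper-quartile normalization, other filters, a replicate block, fits restricted to the groups compared, and each library left out.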

Additional observations from a re-analysis of the deposited data

Results flagged for a closer look

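For 5 genes the response to serum differed between Lap2 and control siRNA by a test of the difference itself, the interaction in edgeR. The log2FC with Lap2 siRNA minus that with control siRNA was 1.49 for Socs2, 0.83 for Socs3, 0.83 for Cish, 0.43 for Socs1 and -0.49 for Pim1. Each library left out in turn left the calls of Socs2, Socs3, Cish and Socs1 in place, with interactions of 1.42 to 1.55, 0.77 to 0.90, 0.66 to 1.08 and 0.35 to 0.48. That of Pim1 ranged from -0.54 to -0.41 and was lost without the third stimulated control library or the second stimulated Lap2-depleted library (adjusted p = 0.0696 in both cases).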

How the results depend on the processing

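Of the members' log2FC values under alternatives other than leaving out a library, 376 of 390 kept their direction and their side of the threshold, and of those with a library left out 589 of 600 did. Scaling to total counts raised the number of members called for Lap2 siRNA in 15% FBS from 3 to 7. It also turned values that were not called: Cish (0.0397) and Pim1 (0.0456) for Lap2 siRNA in 15% FBS, Socs5 (0.0596) in 0.3% FBS, and Socs6 for serum with control (-0.10) and Lap2 siRNA (-0.19), the latter also with upper-quartile normalization (-0.0751). By construction this scaling leaves out the correction for composition that TMM applies. With 1 library left out, Socs6 for serum with Lap2 siRNA ranged from -0.0431 to 0.0716 and Pim1 for Lap2 siRNA in 15% FBS from -0.11 to 0.0281, both on either side of 0. Members called ranged from 9 to 9 and 9 to 9 for serum, 7 to 9 and 3 to 4 for Lap2 siRNA in 0.3% and 15% FBS, and 4 to 5 for the interaction. Over all tested genes the number of interactions called also depended on the libraries. It was 2540 of 18668 with all libraries. Without the first starved Lap2-depleted library it was 3529 of 18434, and without the first stimulated one 1886 of 18520.

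With the replicate number as a block (replicate block), 9, 9, 8, 3 and 5 members were called in the 5 comparisons, as without it. Same-numbered libraries of different groups did not deviate together: 0 of 18 pairs had a correlation of deviations over 0.1 (-0.12 to 0.10 over 10449 genes), so the numbers were not taken as pairs. With 3 libraries per group, standard errors of the members' log2FC of 0.0638 to 0.159 limit what could be called.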
